A study of Mus musculus with 9 samples.

Results

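The genes described here are 36 genes of glycolysis, of the entry and exit of its substrates and products, of pyruvate entry into mitochondria, and of the pentose phosphate pathway. They were chosen by name from the mouse gene symbols, and all 36 were among the 49671 genes of the count table. RNA was sequenced as ribosomal-RNA-depleted total RNA with a strand-keeping kit. Levels were compared between splenic CD3+ T cells of 3 groups with 3 libraries each. Inhibitor cells spent 48 hours on anti-CD3 bound to the plate (1 µg/ml), with anti-CD28 in solution (10 µg/ml) and 2.5 µM of IMD-0354. IMD-0354 is known as an inhibitor of IKK-beta, a kinase that acts upstream of NF-kB. Stimulated cells had the same culture for 48 hours without the compound. Unstimulated cells went into TRIzol straight after isolation on enrichment columns. All cells came from female F1 mus x cast mice, bred from C57BL/6 mothers heterozygous for an Xist deletion and castaneus fathers, a cross in which X inactivation is skewed. The culture medium was RPMI-1640 with added sodium pyruvate, non-essential amino acids and β-mercaptoethanol. The labels name neither a vehicle for the compound nor unstimulated cells kept in culture. Stimulation and culture therefore cannot be told apart, nor can the compound and its solvent. The series title places the experiment in a study of NF-kB signalling, Xist RNA and X inactivation after T cell activation.

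Glycolysis breaks glucose down to pyruvate in the cytosol and yields ATP and NADH. Resting T cells use little glucose, and activation through the T cell receptor and CD28 is known to raise glucose uptake and the conversion of pyruvate to lactate even when oxygen is present. Several steps have isoforms encoded by separate genes, which differ in regulation and tissue distribution. The pentose phosphate pathway branches off after the first phosphorylation of glucose and supplies NADPH through its oxidative steps and ribose phosphate for nucleotides through its non-oxidative steps. Many glycolytic genes are known targets of the hypoxia-inducible factor HIF-1 and of MYC.

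Total counts per library ranged from 34009988 to 56221174. Each member had at least 65 counts in each library, up to 126599, and all 36 passed the filter on low counts. T cell identity genes were present at similar summed levels in all groups, with 12 markers including Cd3e, Cd3d, Cd3g and Cd2 summing to 2387 to 2496 CPM in inhibitor, 2405 to 2586 in stimulated and 1968 to 3025 in unstimulated libraries. Of these 12 markers, 3 were called higher and 3 lower in stimulated than in unstimulated cells. In inhibitor cells 3 were higher and 3 lower than in stimulated cells, and 2 were higher and 3 lower than in unstimulated cells. Of all genes tested, 32.0% were called higher and 34.0% lower in stimulated than in unstimulated cells. For inhibitor against stimulated cells these shares were 21.7% and 22.8%, and for inhibitor against unstimulated cells 26.3% and 26.1%. Markers of other cells were far lower after culture. The 10 B cell markers summed to 151 to 157 CPM in inhibitor, 74.8 to 84.5 in stimulated and 996 to 2860 CPM in unstimulated libraries, and the 12 myeloid and dendritic cell markers to 26.4 to 43.4, 11.8 to 16.2 and 1050 to 2877 CPM. Of the B cell markers 9 of 10 were lower in stimulated than in unstimulated cells, and of the myeloid markers all 12 were, with Clec9a and C1qa at 0 counts in stimulated cells. Between inhibitor and stimulated cells 5 of 10 B cell and 4 of 12 myeloid markers were higher in inhibitor cells. The 6 NK cell markers summed to 32.3 to 41.2, 28.5 to 32.6 and 234 to 277 CPM, with all 6 lower in stimulated than in unstimulated cells. Between inhibitor and stimulated cells 5 NK cell markers were lower and 1, Eomes, was higher in inhibitor cells (median log2 fold change -3.00), although the sums were close. For the 8 erythroid and platelet markers the sums were 4.82 to 12.7, 4.32 to 6.93 and 39.2 to 582 CPM, and 6 of 8 were lower in stimulated than in unstimulated cells. Unstimulated library 2 had the highest sums of its group for B cell, myeloid and erythroid markers. It also had the highest level of its group for 16 of the 36 members, against 14 for unstimulated library 1 and 6 for unstimulated library 3. In inhibitor library 1, 30106 genes were detected, while each other library had 20547 to 23223, and it had the lowest level of its group for 22 members. Inhibitor library 3 had the highest level of its group for 23 members. The part of these differences in the results on the members was not tested. Values without unstimulated library 2 or inhibitor library 1 are given where a call depends on that library. In bulk RNA, fewer cells of a type and less RNA per cell cannot be told apart.

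The promoters are shown because most of the members moved together between the groups, and because the core of the hypoxia response element can be read in them. RefSeq promoter windows on GRCm38.p6 (the mm10 assembly), from 250 bases before to 50 bases after a start site, were matched for 35 members, with 51 windows in all. Capitals mark every ACGTG or GCGTG on either strand, that is also CACGT and CACGC as read here. A CACGTG holds ACGTG on both strands and counts as 2 matches. The 150 bases before the start are printed for 3 members that rose with stimulation and were lower with the inhibitor (Ldha, Slc16a3, Slc2a1), for an X-linked one of the same kind (Pgk1), and for Eno2, whose level was not lower with the inhibitor.
Ldha, chr7:46845654-46845803, plus strand: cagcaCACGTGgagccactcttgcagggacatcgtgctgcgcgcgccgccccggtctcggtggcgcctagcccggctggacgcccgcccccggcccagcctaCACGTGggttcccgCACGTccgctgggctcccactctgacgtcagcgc
Slc16a3, chr11:120948917-120949066, plus strand: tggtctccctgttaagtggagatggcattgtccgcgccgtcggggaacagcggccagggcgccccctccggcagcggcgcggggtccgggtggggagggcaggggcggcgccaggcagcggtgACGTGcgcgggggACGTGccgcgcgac
Slc2a1, chr4:119108595-119108744, plus strand: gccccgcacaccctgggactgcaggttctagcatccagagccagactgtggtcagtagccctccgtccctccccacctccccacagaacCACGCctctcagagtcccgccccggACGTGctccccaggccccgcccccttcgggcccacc
Pgk1, chrX:106186950-106187099, plus strand: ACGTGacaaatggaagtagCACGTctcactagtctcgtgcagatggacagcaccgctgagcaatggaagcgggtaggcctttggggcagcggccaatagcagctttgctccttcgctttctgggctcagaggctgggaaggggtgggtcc
Eno2, chr6:124769674-124769823, minus strand: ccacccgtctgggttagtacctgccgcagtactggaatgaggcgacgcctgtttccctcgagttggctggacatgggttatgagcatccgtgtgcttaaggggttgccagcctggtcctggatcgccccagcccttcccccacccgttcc
The full 300-base window of the Ldha start printed here held 7 matches, and the window of another Ldha start, not printed, held 2. The windows of Slc16a3, Slc2a1 and Pgk1 held 2 each, and that of Eno2 held 0. At least 1 match was present in 39 of the 51 windows of members (76.5%), against 49.3% of the 21263 windows of all protein-coding genes. By gene, 31 of 35 members (88.6%) and 52.3% of 17492 genes had a match in at least 1 window. The share by gene also depends on windows per gene, with 51 windows for 35 members and 21263 for 17492 genes. The base composition of the windows was not compared. Matches were also present in members not called lower in inhibitor than in stimulated cells: Ldhb, Pfkfb4, Pdk2, Mpc1, Mpc2, G6pdx, Pgls and Rpia. The printed windows therefore do not show how matches and the level in inhibitor cells go together. Besides Eno2, the members with no match in any window were Gpi1, Tpi1 and Rpe. Of these Tpi1 (4.75 ± 0.20) and Gpi1 (1.45 ± 0.07) rose with stimulation and were lower in inhibitor than in stimulated cells (-3.56 ± 0.19 and -0.71 ± 0.06, log2 fold change ± SE), so that members with no match were found with and without a lower level in inhibitor cells. The E-box CACGTG was in 5 of 51 member windows (9.80%) and 7.84% of all windows, and the kappa-B consensus in 1 of 51 (1.96%), a window of Pdk2, and 4.81%. These are counts of letters in a window, and say nothing about binding.

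Together the 36 members took 0.401% to 0.428% of all counts in inhibitor libraries, 1.58% to 1.67% in stimulated libraries and 0.284% to 0.334% in unstimulated libraries. The stimulated libraries stood apart from the other 6, and the inhibitor libraries lay above all unstimulated ones. Of the 8 groups of steps, the one from glyceraldehyde phosphate dehydrogenase to pyruvate kinase differed most and took 0.646% to 0.703% of counts in stimulated libraries, against 0.0689% to 0.0745% in unstimulated ones. The 7 pentose phosphate genes differed less. Their oxidative steps took 0.0246% to 0.0248% of counts in stimulated cells, against 0.0151% to 0.0249% in unstimulated cells. Those ranges overlapped only through unstimulated library 2 (0.0249%). As summed CPM, which use scaled library sizes, the oxidative steps had 258 to 266 in stimulated and 143 to 222 in unstimulated libraries, without overlap. The non-oxidative steps took 0.0686% to 0.0742% in stimulated and 0.0337% to 0.053% in unstimulated libraries.

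**Figure D1:**
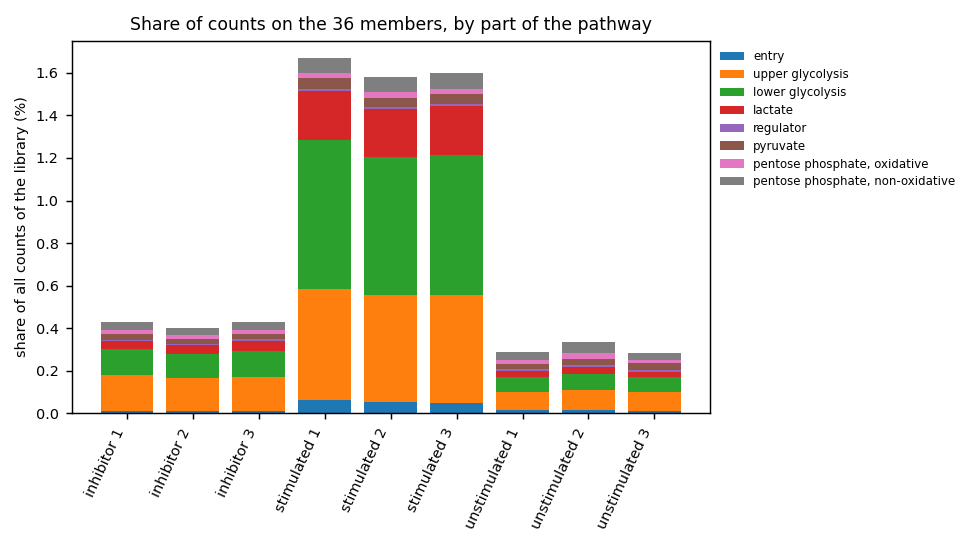
Share of all counts of a library, in percent, that fell on the 36 members, stacked by part of the pathway (entry: glucose transporters; regulator: Pfkfb3 and Pfkfb4), with 1 bar per library. Inhibitor libraries reach 0.401% to 0.428%, stimulated libraries 1.58% to 1.67% and unstimulated libraries 0.284% to 0.334%.

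In the test across all 18374 genes with edgeR, 31 of the 36 members were higher and 2 lower in stimulated than in unstimulated cells, with a median log2 fold change of 1.77. At least 2-fold changes were called higher for 22 members and lower for 2, against 19.5% and 23.2% of all genes. Of all genes 32.0% were called higher and 34.0% lower in that comparison, and their median was -0.05. Between inhibitor and stimulated cells 26 members were lower and 1 was higher with the inhibitor (median -1.33), against 22.8% of all genes lower and 21.7% higher (median 0.03). By at least 2-fold, 21 members were lower and 1 was higher, against 10.8% and 9.31% of all genes. Between inhibitor and unstimulated cells, 19 members were higher and 8 lower (median 0.43), against 26.3% of all genes higher and 26.1% lower. By at least 2-fold, 9 were higher and 2 lower, against 10.8% and 17.1% of all genes. The comparisons share libraries and are not independent of each other. A call here means a Benjamini-Hochberg adjusted p below 0.05 over all genes tested. Fold changes below are log2 values with an approximate SE, and levels are CPM in libraries 1, 2 and 3 of a group. The sample titles number the 3 libraries of a group as biological replicates, but no label tells whether each library is from a different mouse. The spread that the p-values measure is that between these samples and may be technical.

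**Figure D2:**
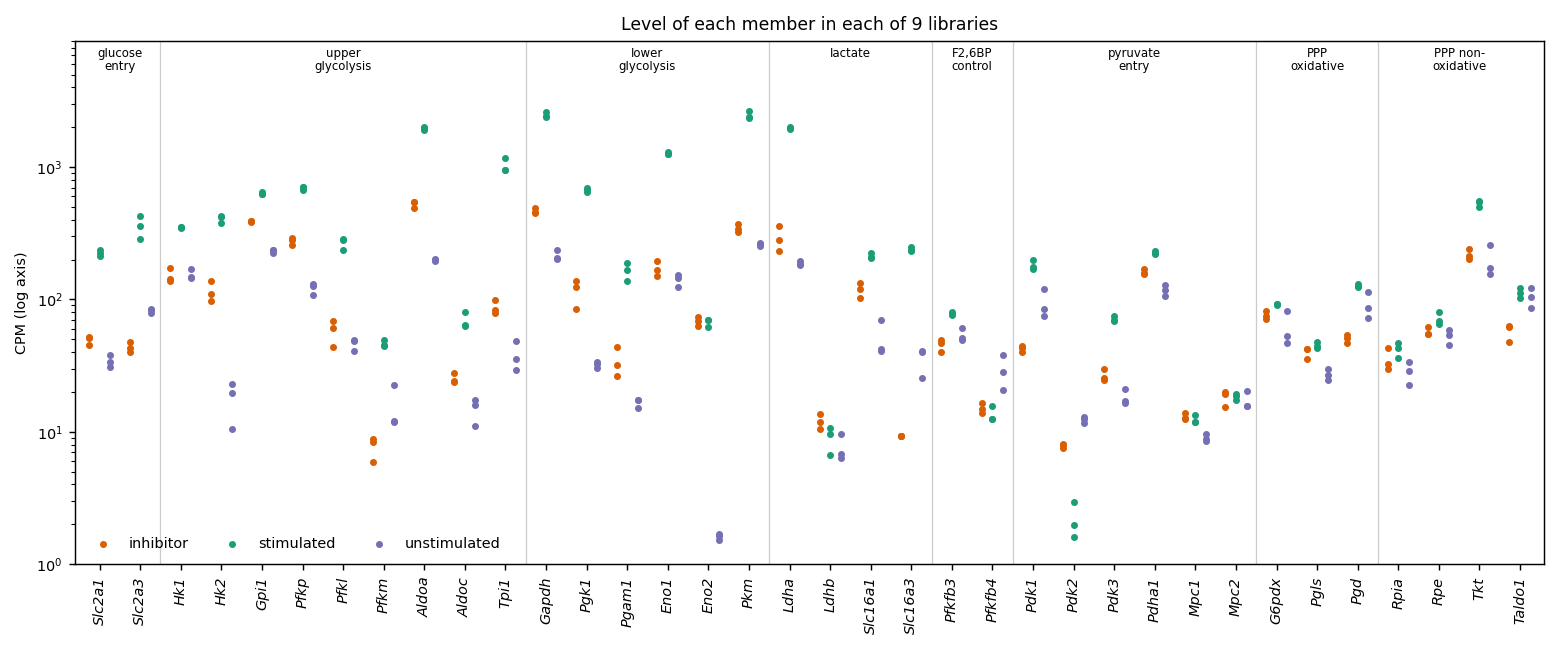
CPM of each member on a log axis in each of the 9 libraries (1 point per library), in the order of the pathway; F2,6BP control stands for the enzymes Pfkfb3 and Pfkfb4, and PPP for the pentose phosphate pathway. In glycolysis the stimulated points lie above the others except at Eno2, where inhibitor points (62.9 to 73.9 CPM) overlap the stimulated ones.

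**Figure D3:**
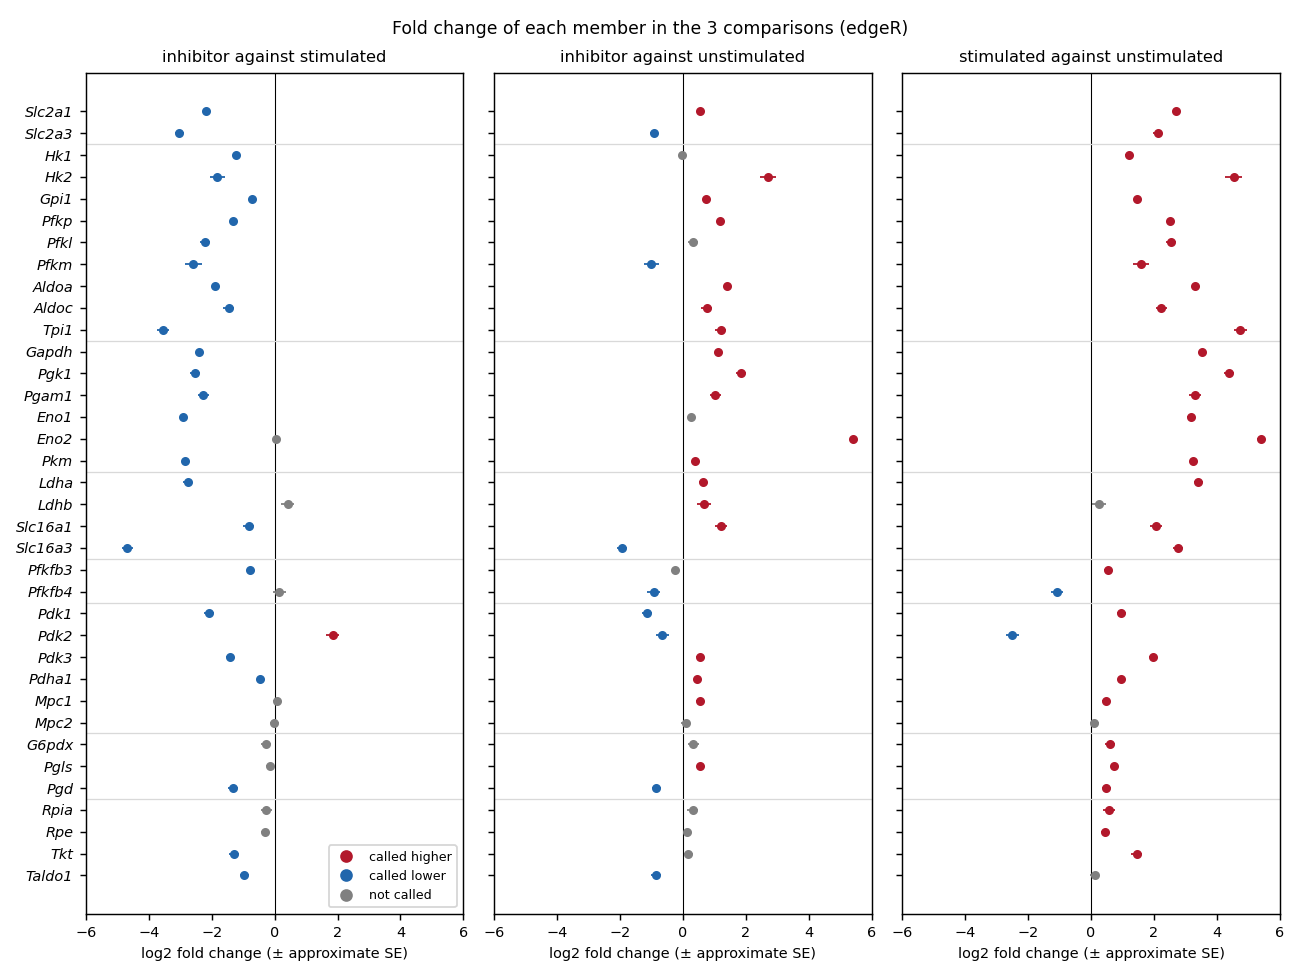
Log2 fold change of each member with its approximate SE in the 3 comparisons (edgeR), coloured by whether it was called. Between inhibitor and stimulated cells the values run from -4.68 (Slc16a3) to 1.85 (Pdk2), and between stimulated and unstimulated cells from -2.50 (Pdk2) to 5.39 (Eno2).

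Both glucose transporters rose with stimulation and were lower with the inhibitor, and they differed in where the inhibitor left them. Slc2a1 encodes GLUT1, a transporter known to be needed for glucose uptake by activated T cells. Slc2a1 had 45.4, 51.9 and 51.0 CPM in inhibitor cells, 236, 224 and 211 CPM in stimulated cells and 37.8, 30.9 and 33.8 CPM in unstimulated cells. Its log2 fold changes were -2.18 ± 0.10 between inhibitor and stimulated cells (adjusted p = 4.5e-07), 2.71 ± 0.10 between stimulated and unstimulated cells (adjusted p = 2.1e-08) and 0.53 ± 0.09 between inhibitor and unstimulated cells (adjusted p = 0.00088). The 3 groups did not overlap, and inhibitor libraries lay between the other groups. Slc2a3 encodes the high-affinity transporter GLUT3 and had 39.8, 43.3 and 47.8 CPM in inhibitor cells, 427, 358 and 287 CPM in stimulated cells and 84.3, 83.5 and 78.7 CPM in unstimulated cells. With the inhibitor all 3 libraries were below all unstimulated ones (-0.91 ± 0.13, adjusted p = 0.00025), while stimulated cells were above unstimulated cells by 2.12 ± 0.14. Its change between inhibitor and stimulated cells was -3.03 ± 0.14.

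All 9 genes from hexokinase to triose phosphate isomerase rose with stimulation (median log2 fold change 2.51), and all 9 were lower in inhibitor than in stimulated cells (median -1.83). Against unstimulated cells 6 of them were higher with the inhibitor and Pfkm was lower. The first step, the phosphorylation of glucose, is carried out by hexokinases. Hk2, the inducible form, had 97.0, 109.5 and 137 CPM in inhibitor cells, 378, 422 and 423 CPM in stimulated cells and 19.6, 22.8 and 10.5 CPM in unstimulated cells. No group overlapped another, and inhibitor cells were above unstimulated cells (2.7 ± 0.25, adjusted p = 1.2e-05), with -1.83 ± 0.24 against stimulated cells and 4.53 ± 0.27 between stimulated and unstimulated cells. Hk1, the form found in most tissues, had 173, 138 and 142 CPM in inhibitor cells, 355, 355 and 344 CPM in stimulated cells and 145, 169.9 and 148 CPM in unstimulated cells. It rose by 1.19 ± 0.10 with stimulation and was lower by 1.22 ± 0.10 with the inhibitor, whose libraries overlapped the unstimulated ones (-0.03 ± 0.10, adjusted p = 0.83).

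Phosphofructokinase catalyses the committed step of glycolysis, and its subunits are encoded by Pfkp, Pfkl and Pfkm. Pfkp, known as the platelet form, had 256, 281 and 289 CPM in inhibitor cells, 669.6, 705 and 702 CPM in stimulated cells and 132, 107 and 126 CPM in unstimulated cells, with no overlap between groups and log2 fold changes of -1.33 ± 0.09 (inhibitor against stimulated), 2.51 ± 0.10 (stimulated against unstimulated) and 1.18 ± 0.09 (inhibitor against unstimulated). Pfkl, the liver form, had 43.4, 60.8 and 68.5 CPM in inhibitor cells, 235, 287 and 281 CPM in stimulated cells and 49.1, 40.9 and 48.4 CPM in unstimulated cells. Inhibitor and unstimulated libraries of Pfkl overlapped and the difference was not called (0.32 ± 0.16, adjusted p = 0.115), although it was without inhibitor library 1 (0.49, adjusted p = 0.00747). Pfkm, the muscle form, had 5.94, 8.38 and 8.88 CPM in inhibitor cells, 44.7, 45.5 and 49.2 CPM in stimulated cells and 12.1, 22.5 and 11.9 CPM in unstimulated cells. Its inhibitor libraries were all below the unstimulated ones (-1.0 ± 0.25, adjusted p = 0.00668). Unstimulated library 2 stood above the other unstimulated libraries for Pfkm, as it did for the B cell and myeloid markers, and without it the value was -0.63 (adjusted p = 0.0093).

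Among the other enzymes of upper glycolysis, Gpi1, which converts glucose phosphate to fructose phosphate, had 391, 386 and 388 CPM in inhibitor cells, 631, 648 and 630.4 CPM in stimulated cells and 238, 236 and 224 CPM in unstimulated cells. These 3 ranges were narrow and did not overlap (-0.71 ± 0.06 for inhibitor against stimulated and 0.74 ± 0.06 for inhibitor against unstimulated). Aldoa, the aldolase of most tissues, had 489, 546 and 539.5 CPM in inhibitor cells, 1896, 1969 and 1994 CPM in stimulated cells and 194, 202 and 199 CPM in unstimulated cells, and rose by 3.30 ± 0.08 with stimulation (adjusted p = 2.6e-09). Its inhibitor libraries were at levels below stimulated (-1.90 ± 0.08) and above unstimulated cells (1.40 ± 0.08, adjusted p = 4.6e-07). Aldoc, known as the brain form, had 27.6, 23.7 and 24.1 CPM in inhibitor cells, 80.1, 64.0 and 63.3 CPM in stimulated cells and 17.4, 11.0 and 16.0 CPM in unstimulated cells, again with the inhibitor group between the others. Tpi1, which interconverts the 2 triose phosphates, had 82.7, 79.4 and 98.5 CPM in inhibitor cells, 1177, 943 and 943 CPM in stimulated cells and 35.6, 48.6 and 29.3 CPM in unstimulated cells. Its stimulated libraries lay far above all others, with changes of 4.75 ± 0.20 for stimulated against unstimulated (adjusted p = 5.4e-08) and -3.56 ± 0.19 for inhibitor against stimulated cells (adjusted p = 1.1e-06).

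All 6 genes of lower glycolysis rose with stimulation (median 3.42). In inhibitor cells 5 of them were lower than in stimulated cells (median over the 6 of -2.48), and the exception was Eno2. Gapdh, which oxidises glyceraldehyde phosphate, had 448, 459 and 493 CPM in inhibitor cells, 2616, 2436 and 2400 CPM in stimulated cells and 203, 236 and 204 CPM in unstimulated cells. Pgk1, phosphoglycerate kinase, which makes ATP, had 83.9, 125 and 137 CPM in inhibitor cells, 652, 695 and 669 CPM in stimulated cells and 32.3, 30.5 and 33.5 CPM in unstimulated cells. In both genes inhibitor cells lay between stimulated and unstimulated cells without overlap, with 1.12 ± 0.09 and 1.85 ± 0.16 against unstimulated cells. Pgam1, phosphoglycerate mutase, had 26.5, 31.8 and 43.7 CPM in inhibitor cells, 138, 167 and 189.5 CPM in stimulated cells and 17.5, 17.3 and 15.1 CPM in unstimulated cells and rose by 3.31 ± 0.19 with stimulation. Pkm encodes pyruvate kinase, the last step of the pathway, and had 338, 322 and 369.6 CPM in inhibitor cells, 2658, 2363 and 2398 CPM in stimulated cells and 266, 255 and 264 CPM in unstimulated cells. It was lower by 2.85 ± 0.09 with the inhibitor than in stimulated cells (adjusted p = 1.4e-07), and above unstimulated cells by 0.39 ± 0.09 (adjusted p = 0.00335).

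The enolase genes Eno1 and Eno2 parted under the inhibitor. Eno1, the enolase of most tissues, had 149.8, 166 and 195 CPM in inhibitor cells, 1257, 1255 and 1291 CPM in stimulated cells and 145, 124 and 153 CPM in unstimulated cells. It rose by 3.17 ± 0.12 with stimulation and was lower by 2.90 ± 0.12 with the inhibitor (adjusted p = 3.3e-07), and its inhibitor libraries overlapped the unstimulated ones (0.27 ± 0.11, adjusted p = 0.0615). That last difference was called without inhibitor library 1 (0.36, adjusted p = 0.021) or without unstimulated library 3 (0.34, adjusted p = 0.0457). Eno2, known as neuronal enolase, had 68.4, 73.9 and 62.9 CPM in inhibitor cells, 69.7, 70.0 and 61.8 CPM in stimulated cells and 1.67, 1.51 and 1.62 CPM in unstimulated cells. Inhibitor and stimulated libraries overlapped, and their difference was 0.03 ± 0.09 (adjusted p = 0.843). Both groups were far above unstimulated cells, by 5.42 ± 0.12 in inhibitor (adjusted p = 6e-09) and 5.39 ± 0.12 in stimulated cells (adjusted p = 1.8e-09). Of all genes tested, 0.354% had a larger log2 fold change than Eno2 between inhibitor and unstimulated cells, and 50.3% between inhibitor and stimulated cells. Per kilobase of merged exons, Eno2 averaged 14.5 ± 1.17 in inhibitor, 14.3 ± 0.994 in stimulated and 0.34 ± 0.0179 CPM in unstimulated cells, while Eno1 averaged 31.6 ± 4.25, 236 ± 3.74 and 26.2 ± 2.76 CPM (SD, n = 3).

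Near-identical copies limit several of these values. Stretches of at least 100 bases with at least 95% identity to transcripts of other genes covered 85.6% of the Eno1 transcript, 88.0% of that of Gapdh, 68.8% for Pgk1, 65.5% for Pkm, 55.0% for Ldha, 53.7% for Gpi1, 76.8% for Ldhb, 43.1% for Pgam1, 27.4% for Mpc1 and 19.3% for Tpi1, and reads that match several genes may have been lost or shared. The largest such partner of Eno1 was Eno1b, which had 20.6 ± 3.65 CPM in inhibitor, 141 ± 1.56 in stimulated and 14.9 ± 1.92 CPM in unstimulated cells. No such stretch was found for Eno2. Counts assigned to the copies of Mpc1 came to 32% of its own, the highest share of the 36 members, against 17.3% for Eno1. Reads from exons that genes share on the same strand cannot be assigned to 1 gene, which touched 20.6% of the merged exons of Pgls (with Fam129c), 15.3% of Pkm (with Gm49759) and 10.2% of Pfkm (with Gm26513). Overlap with a gene on the opposite strand covered 23.1% of Mpc1, 17.9% of Rpe (with Kansl1l), 16.1% of Pdha1 (with Map3k15), 13.6% of G6pdx (with Ikbkg) and 11.5% of Gpi1, and it can be resolved only if strand was used in counting, for which no setting was given in the sources used here.

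In the last steps, pyruvate is reduced to lactate and exported. Ldha, the subunit that favours lactate formation, had 233, 282 and 358 CPM in inhibitor cells, 1943, 1983 and 2023 CPM in stimulated cells and 195, 184 and 181 CPM in unstimulated cells. It rose by 3.41 ± 0.15 with stimulation and was lower by 2.77 ± 0.14 with the inhibitor (adjusted p = 9.1e-07), where it was above unstimulated cells by 0.64 ± 0.13 (adjusted p = 0.00257). Ldhb, the subunit of the heart form, had 10.5, 13.7 and 11.8 CPM in inhibitor cells, 6.66, 9.66 and 10.7 CPM in stimulated cells and 9.54, 6.38 and 6.77 CPM in unstimulated cells. Its groups overlapped in both comparisons with stimulated cells and neither was called (adjusted p = 0.153 and 0.332). Its higher level in inhibitor than in unstimulated cells (0.67 ± 0.22, adjusted p = 0.0271) was not called without any 1 of inhibitor library 2 (adjusted p = 0.102), inhibitor library 3 (0.0615), unstimulated library 2 (0.0789) or unstimulated library 3 (0.0807), nor with upper-quartile scaling (0.052).

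The lactate transporters moved unequally. Slc16a3 encodes MCT4, a transporter known for lactate export from glycolytic cells, and had 9.27, 9.23 and 9.27 CPM in inhibitor cells, 236, 247 and 232 CPM in stimulated cells and 40.4, 40.5 and 25.7 CPM in unstimulated cells. Its difference between inhibitor and stimulated cells, -4.68 ± 0.17 (adjusted p = 2.3e-07), was the most negative of the 36 members, and 0.544% of all genes had a lower value. The inhibitor libraries were also below every unstimulated one (-1.94 ± 0.16, adjusted p = 5.1e-06), whereas stimulated cells were above unstimulated cells by 2.75 ± 0.16. Slc16a1, which encodes MCT1, had 103, 121 and 133 CPM in inhibitor cells, 222, 206 and 208 CPM in stimulated cells and 41.0, 69.7 and 42.2 CPM in unstimulated cells. Its inhibitor libraries lay between the other groups, -0.83 ± 0.19 from stimulated (adjusted p = 0.00478) and 1.22 ± 0.19 from unstimulated cells (adjusted p = 0.00036). Bsg, the ancillary protein of both transporters, averaged 114 ± 6.46 CPM in inhibitor, 367 ± 14.0 in stimulated and 73.1 ± 13.1 CPM in unstimulated cells, and was called in all 3 comparisons.

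Pfkfb3 and Pfkfb4 encode enzymes that make and break the bisphosphate activator of phosphofructokinase. Pfkfb3 had 39.9, 47.1 and 49.2 CPM in inhibitor cells, 77.0, 80.0 and 75.6 CPM in stimulated cells and 60.6, 49.4 and 50.6 CPM in unstimulated cells. It rose by 0.53 ± 0.11 with stimulation and was lower by 0.77 ± 0.11 with the inhibitor, with no call between inhibitor and unstimulated cells (adjusted p = 0.0913). That last difference was called with upper-quartile scaling (-0.33, adjusted p = 0.023), with DESeq2 (-0.29, adjusted p = 0.0298), with median-ratio scaling (-0.29, adjusted p = 0.0398) and with only genes averaging 10 CPM or more (-0.38, adjusted p = 0.00639). Pfkfb4 had 14.0, 16.5 and 14.9 CPM in inhibitor cells, 12.6, 12.5 and 15.7 CPM in stimulated cells and 28.1, 37.7 and 20.8 CPM in unstimulated cells. It was one of the 2 members that fell with stimulation (-1.09 ± 0.20, adjusted p = 0.00083), and inhibitor and stimulated libraries overlapped (adjusted p = 0.562).

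Pyruvate dehydrogenase kinases phosphorylate the pyruvate dehydrogenase complex and switch it off, and their 3 genes here moved in different directions. Pdk1 had 42.9, 40.0 and 44.0 CPM in inhibitor cells, 199.6, 175 and 170.0 CPM in stimulated cells and 75.4, 84.5 and 120.2 CPM in unstimulated cells. It rose by 0.96 ± 0.15 with stimulation, and with the inhibitor all libraries were below both other groups (-2.10 ± 0.16 against stimulated, adjusted p = 7.2e-06; -1.14 ± 0.16 against unstimulated cells, adjusted p = 0.00016). Pdk2 had 7.97, 7.56 and 8.04 CPM in inhibitor cells, 1.99, 2.96 and 1.61 CPM in stimulated cells and 11.7, 12.5 and 12.9 CPM in unstimulated cells. It was the second member that fell with stimulation (-2.50 ± 0.22, adjusted p = 4.7e-06) and the only one of the 36 that was called higher in inhibitor than in stimulated cells (1.85 ± 0.21, adjusted p = 0.0001). Against unstimulated cells it was lower with the inhibitor (-0.65 ± 0.20, adjusted p = 0.0214), a call lost without inhibitor library 2 (adjusted p = 0.0701), inhibitor library 3 (0.0542) or unstimulated library 3 (0.0536). Pdk3 had 29.7, 25.4 and 24.8 CPM in inhibitor cells, 74.9, 69.6 and 68.4 CPM in stimulated cells and 17.1, 20.9 and 16.6 CPM in unstimulated cells, with the inhibitor group between the others and no overlap.

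The target of these kinases and the mitochondrial pyruvate carrier were measured through 3 genes. Pdha1, a catalytic subunit of pyruvate dehydrogenase, had 159, 156 and 170.1 CPM in inhibitor cells, 231, 222 and 225 CPM in stimulated cells and 107, 118 and 128 CPM in unstimulated cells. It rose by 0.94 ± 0.08 with stimulation and was lower by 0.48 ± 0.08 with the inhibitor (adjusted p = 0.0009). Mpc1, of the mitochondrial pyruvate carrier, had 12.7, 12.5 and 13.8 CPM in inhibitor cells, 13.4, 11.9 and 11.9 CPM in stimulated cells and 8.56, 8.86 and 9.63 CPM in unstimulated cells, and its rise with stimulation (0.46 ± 0.12, adjusted p = 0.00669) was not called with upper-quartile scaling (0.24, adjusted p = 0.115) or with no filter on low counts (0.47, adjusted p = 0.0518). Mpc2, the other carrier subunit, had 15.3, 19.2 and 20.1 CPM in inhibitor cells, 17.4, 18.5 and 19.1 CPM in stimulated cells and 20.2, 15.6 and 15.6 CPM in unstimulated cells, with overlap between all groups and no call in any comparison (adjusted p = 0.96 for inhibitor against stimulated, 0.641 for inhibitor against unstimulated and 0.565 for stimulated against unstimulated cells). Of the 10 tested genes of a list of other pyruvate dehydrogenase genes, 8 rose with stimulation and 0 fell, against 32.0% and 34.0% of all genes. With the inhibitor 7 of the 10 were lower than in stimulated cells, against 22.8% of all genes. Dlat, the acetyltransferase of the complex, averaged 50.6 ± 2.24 CPM in inhibitor, 86.5 ± 1.64 in stimulated and 32.9 ± 5.89 CPM in unstimulated cells.

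The 3 oxidative genes of the pentose phosphate pathway rose with stimulation (median log2 fold change 0.60). Of the 4 non-oxidative genes Rpia, Rpe and Tkt rose and Taldo1 was not called, with a median of 0.50 over the 4. G6pdx, glucose phosphate dehydrogenase and the first NADPH-yielding step, had 81.9, 70.9 and 74.8 CPM in inhibitor cells, 89.9, 91.8 and 91.7 CPM in stimulated cells and 52.6, 81.1 and 47.0 CPM in unstimulated cells. It rose by 0.60 ± 0.17 (adjusted p = 0.0113), and inhibitor cells were called against neither stimulated (adjusted p = 0.237) nor unstimulated cells (adjusted p = 0.133). A fit of inhibitor and stimulated libraries alone called it lower with the inhibitor (-0.25, adjusted p = 0.0279). Pgls, the lactonase, had 35.7, 42.3 and 41.8 CPM in inhibitor cells, 42.8, 44.1 and 47.3 CPM in stimulated cells and 29.7, 26.8 and 24.6 CPM in unstimulated cells. Its 3 groups did not overlap, and it was called higher in inhibitor (0.56 ± 0.11, adjusted p = 0.00152) and in stimulated (0.73 ± 0.11, adjusted p = 0.00019) than in unstimulated cells, with no call between inhibitor and stimulated cells (-0.16 ± 0.11, adjusted p = 0.246). Pgd, the second NADPH-yielding dehydrogenase, had 46.6, 51.1 and 54.2 CPM in inhibitor cells, 126, 129.7 and 125 CPM in stimulated cells and 86.1, 114 and 71.8 CPM in unstimulated cells. Its inhibitor libraries lay below both other groups without overlap (-1.32 ± 0.15 against stimulated, adjusted p = 7.7e-05, and -0.84 ± 0.15 against unstimulated cells, adjusted p = 0.00081).

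In the non-oxidative part, transketolase (Tkt) had 202, 212 and 241 CPM in inhibitor cells, 502, 547 and 556 CPM in stimulated cells and 173, 258 and 156 CPM in unstimulated cells. It rose by 1.45 ± 0.17 with stimulation, the most of the 7 pentose phosphate genes, and was lower by 1.29 ± 0.17 with the inhibitor. Inhibitor and unstimulated libraries of Tkt overlapped, and their difference was not called (0.16 ± 0.16, adjusted p = 0.455). Transaldolase (Taldo1) had 47.8, 62.1 and 63.0 CPM in inhibitor cells, 102, 112 and 122 CPM in stimulated cells and 104, 122 and 86.1 CPM in unstimulated cells. Stimulated and unstimulated libraries of Taldo1 overlapped (adjusted p = 0.536), and the inhibitor libraries were below all others (-0.96 ± 0.15 against stimulated and -0.85 ± 0.15 against unstimulated cells, adjusted p = 0.00074). Rpia, ribose phosphate isomerase, had 29.6, 32.6 and 42.8 CPM in inhibitor cells, 35.8, 46.7 and 43.1 CPM in stimulated cells and 28.8, 33.6 and 22.4 CPM in unstimulated cells. Inhibitor libraries of Rpia overlapped both other groups, while stimulated and unstimulated libraries did not overlap. Rpe, the epimerase, had 62.0, 54.7 and 55.1 CPM in inhibitor cells, 80.8, 64.8 and 68.9 CPM in stimulated cells and 45.0, 58.5 and 54.3 CPM in unstimulated cells. Inhibitor libraries of Rpe lay below all stimulated ones and overlapped the unstimulated ones. The rises of Rpia (adjusted p = 0.0198), Rpe (0.00845), G6pdx and Pgd were lost with upper-quartile scaling (0.0848, 0.14, 0.06 and 0.0866) and with only genes averaging 10 CPM or more (0.0821, 0.0908, 0.0681 and 0.0953), and that of Rpia also without stimulated library 2 (0.0682), stimulated library 3 (0.0545) or unstimulated library 3 (0.0665). Between inhibitor and stimulated cells Rpe was not called (-0.32 ± 0.12, adjusted p = 0.0537), but was with DESeq2 (adjusted p = 0.036), limma voom (0.0453), no filter on low counts (0.0318), only the 2 groups compared (0.0362) and without stimulated library 2 (0.042).

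Unstimulated library 2 had the highest level of its group for 6 of the 7 pentose phosphate genes (all but Pgls), and also the highest summed B cell markers (2860 CPM, against 996 and 2022), myeloid markers (2877 CPM, against 1050 and 1731) and erythroid and platelet markers (582 CPM, against 39.2 and 470.3). Their part in the pentose phosphate levels was not tested. Without that library the rise of G6pdx with stimulation was 0.87 (adjusted p = 2.32e-05), that of Pgd 0.68 (adjusted p = 0.000266) and that of Tkt 1.70 (adjusted p = 5.84e-07). Inhibitor cells were then above unstimulated cells for G6pdx (0.60, adjusted p = 0.000432) and Tkt (0.40, adjusted p = 0.00765), neither of which was called with all libraries. Between inhibitor and unstimulated cells Pgd (-0.64, adjusted p = 0.000507) and Taldo1 (-0.72, adjusted p = 0.00177) were again called lower.

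Of the 36 members 4 lie on the X chromosome, which bears on a cross with skewed X inactivation: Pgk1, Pdk3, Pdha1 and G6pdx. On mm10 they span 106187100 to 106203699 (Pgk1), 93764607 to 93832201 (Pdk3), 160122209 to 160138413 (Pdha1) and 74409483 to 74429194 (G6pdx). All 4 rose with stimulation, by 4.39 ± 0.17, 1.96 ± 0.12, 0.94 ± 0.08 and 0.60 ± 0.17 in that order. With the inhibitor Pgk1, Pdk3 and Pdha1 were lower than in stimulated cells, by -2.54 ± 0.16, -1.42 ± 0.12 and -0.48 ± 0.08, and G6pdx was not called. The table holds total counts per gene, and the alleles were not analysed here.

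Within isoform families, shares were computed per kilobase of merged exons in each library. Hk2 made up 44.4% to 57.9% of hexokinase in inhibitor, 60.3% to 63.7% in stimulated and 9.24% to 16.2% in unstimulated libraries. Slc16a3 fell to 5.47% to 6.95% of the monocarboxylate transporter pair in inhibitor libraries, against 46.9% to 50.0% in stimulated and 32.6% to 45.0% in unstimulated libraries. For Eno2 the share of enolase was 27.0% to 34.3% in inhibitor, 5.19% to 5.99% in stimulated and 1.20% to 1.37% in unstimulated libraries. These 3 groups did not overlap in any of the 3 families.

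Pfkp made up 62.5% to 69.8% of phosphofructokinase in inhibitor libraries, against 48.0% to 50.7% in stimulated and 38.3% to 47.2% in unstimulated libraries, and Pfkm 6.48% to 7.71%, 12.5% to 13.6% and 17.4% to 32.3%. The share of Slc2a1 in the transporter pair was 68.8% to 71.3% in inhibitor, 53.3% to 60.4% in stimulated and 43.3% to 48.1% in unstimulated libraries. Ldhb was at 6.51% to 9.26% of lactate dehydrogenase in inhibitor libraries, 0.717% to 1.10% in stimulated and 6.83% to 9.33% in unstimulated libraries, so that inhibitor and unstimulated libraries overlapped. Pdk2 was at 12.8% to 14.2%, 1.04% to 1.85% and 15.6% to 18.4% of the kinases, and Pdk1 at 28.1% to 31.7%, 44.5% to 46.2% and 47.3% to 59.4%. Aldoa stayed between 92.6% and 97.2% of aldolase in all 9 libraries. Which isoform leads depends on the length used. With the longest transcript in place of merged exons Hk1 led in all 3 groups. Slc16a3 and Pdk1 then led in stimulated cells, where Slc16a1 and Pdk3 led by merged exons. These shares were described and not tested.

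**Figure D4:**
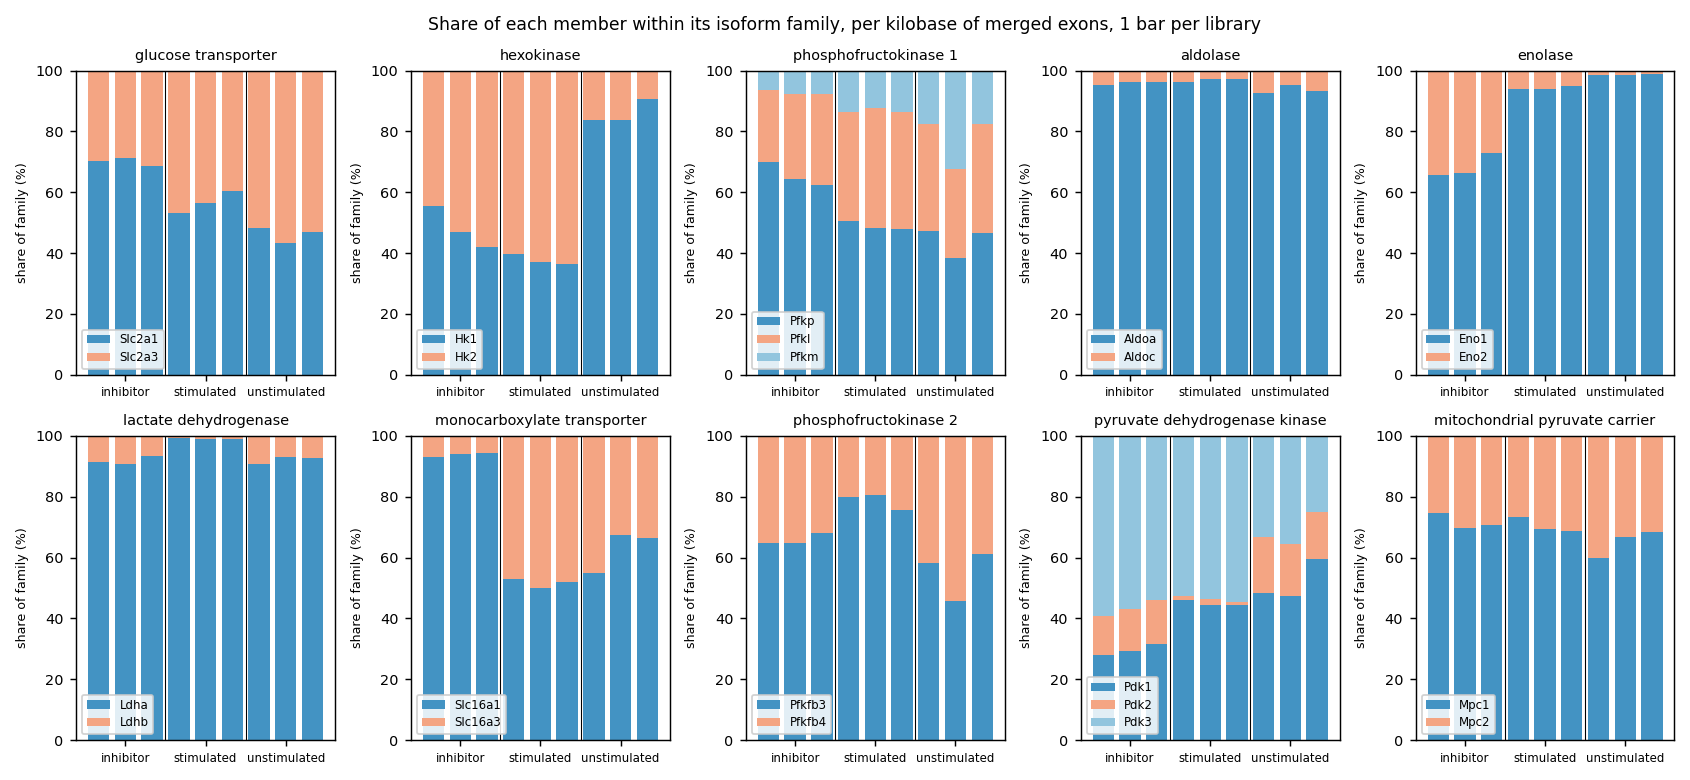
Share of each member within its isoform family, in percent of the family's CPM per kilobase of merged exons, with 1 bar per library and the 3 libraries of a group side by side. Slc16a3 is at 5.47% to 6.95% in inhibitor libraries and Eno2 at 27.0% to 34.3%, both outside the ranges of the other groups.

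Per kilobase of merged exons Aldoa had the highest level of the members in each group, and the order after it differed between groups. Aldoa had 180 ± 10.7 CPM per kilobase in inhibitor, 671 ± 17.5 in stimulated and 68.1 ± 1.40 in unstimulated cells (SD, n = 3). In stimulated cells Gapdh (601 ± 28.1) and Ldha (599 ± 12.1) followed and did not differ beyond their spread, then Pkm (494.5 ± 32.3) and Tpi1 (371 ± 49.2). Gapdh (113 ± 5.60), Ldha (88.0 ± 19.1) and Pkm (68.6 ± 4.86) followed in inhibitor cells, where the ranges of mean ± SD of Ldha and Pkm overlapped. In unstimulated cells Ldha (56.4 ± 2.32), Pkm (52.3 ± 1.15), Gapdh (51.8 ± 4.54) and Taldo1 (48.0 ± 8.33) followed. There the ranges of mean ± SD of Ldha and Pkm did not overlap, while those of Pkm and Gapdh and of Gapdh and Taldo1 did. With the longest transcript as length Aldoa was again first in all 3 groups, and in stimulated cells Gapdh came after Ldha and Pkm. With that length Ldha came before Gapdh in inhibitor cells. In unstimulated cells Pkm (107.6 ± 2.37) then came before Ldha (102.8 ± 4.235), with overlapping ranges of mean ± SD. Gapdh there came after Taldo1, Gpi1 and Eno1, so the order depends on the length used.

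Other genes of the pathway came from lists chosen by function. Their counts are to be read beside the shares of all genes called. Those were 32.0% higher and 34.0% lower with stimulation, and 21.7% higher and 22.8% lower in inhibitor than in stimulated cells. Of 16 tested genes of glycolysis and gluconeogenesis outside the members, 10 rose and 4 fell with stimulation (median 1.18), and between inhibitor and stimulated cells 2 were higher and 5 lower (median -0.03). Besides Eno1b these included Pcx, pyruvate carboxylase, at 6.21 ± 1.11 CPM in inhibitor, 38.6 ± 6.86 in stimulated and 5.49 ± 2.76 CPM in unstimulated cells. Pck2, mitochondrial PEP carboxykinase, was at 143 ± 34.4, 112 ± 19.9 and 20.1 ± 7.51 CPM, with no call between inhibitor and stimulated cells (adjusted p = 0.293). Hk3, a hexokinase known from myeloid cells, was at 2.63 ± 1.72, 0.577 ± 0.156 and 18.8 ± 12.4 CPM, and Pklr, pyruvate kinase of liver and red cells, at 0.0633 ± 0.110, 0.0141 ± 0.0244 and 17.1 ± 18.5 CPM, beside the myeloid and erythroid markers given above.

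Of 9 glycogen genes 7 rose and 2 fell with stimulation (median 0.82), and 8 were lower and 0 higher in inhibitor than in stimulated cells (median -1.19). Ppp1r3b, a subunit that targets a phosphatase to glycogen, was at 8.26 ± 0.947 CPM in inhibitor, 201 ± 15.6 in stimulated and 17.0 ± 2.76 CPM in unstimulated cells. Gys1, glycogen synthase, rose by 2.32 ± 0.19 with stimulation, and Pygl, the glycogen phosphorylase of liver, fell by 2.55 on the log2 scale. Of 12 other sugar and monocarboxylate carriers 4 rose and 4 fell with stimulation (median -0.04), against 32.0% and 34.0% of all genes. With the inhibitor 2 of these carriers were higher and 6 lower than in stimulated cells, against 21.7% and 22.8% of all genes. Of 10 other pentose phosphate genes 3 rose and 2 fell with stimulation, and 1 was higher and 6 were lower in inhibitor than in stimulated cells. Pgm1 had 13.5 ± 1.31 CPM in inhibitor, 66.6 ± 6.88 in stimulated and 9.39 ± 1.75 CPM in unstimulated cells.

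Among 9 regulators of glycolysis genes, 3 rose and 4 fell with stimulation (median -0.05), against 32.0% and 34.0% of all genes. With the inhibitor 0 of these 9 were higher and 4 lower than in stimulated cells (median -0.24), against 21.7% and 22.8% of all genes. Hif1a, the oxygen-regulated subunit of HIF-1, averaged 302 ± 20.2 CPM in inhibitor, 966 ± 87.2 in stimulated and 136 ± 11.7 CPM in unstimulated cells, and was called in all 3 comparisons. Myc averaged 283 ± 9.09, 382 ± 37.2 and 88.1 ± 1.20 CPM, with a log2 fold change of -0.43 ± 0.08 between inhibitor and stimulated cells (adjusted p = 0.00174). Txnip, whose protein limits glucose uptake, averaged 53.5 ± 2.84, 133 ± 11.9 and 643 ± 134 CPM, lower after stimulation and lower again with the inhibitor.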

How the data were processed

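RNA-seq was measured in 9 libraries, and the authors deposited a table of raw read counts per Ensembl gene. STAR 2.7.1a, featureCounts and the mm10 genome are named in the submitters' processing notes. For the annotation release, the strand setting and the counting of mates, no value was given in the sources used here. Between 70.6% and 78.5% of counts from 1 to 10 were even. All count columns were used. Gene names came from GENCODE M21 (49412 of 49671 identifiers), and copies and overlaps from its transcripts.

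Genes with low counts were removed with edgeR's filter, which left 18374. The main test was edgeR 4.0.16 (quasi-likelihood, TMM scaling, all 9 libraries in 1 fit, R 4.3.3) with Benjamini-Hochberg adjustment over those genes. CPM values use the TMM-scaled library sizes, while shares of counts use plain totals of 34009988 to 56221174. The approximate SE is the size of the log2 fold change divided by the square root of F. Levels per kilobase used the merged exons of a gene. The test was checked on simulated data with 200 changed genes. In that simulation 46% of the 2-fold and 78.9% of the 4-fold changes were recovered between stimulated and unstimulated cells. The changed genes were drawn from all 18374 at any level, and far more genes were called in the data. These rates therefore need not hold for the members, and a gene that was not called may still differ.

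Alternatives were DESeq2 1.42.0, limma voom 3.58.1, other scalings and filters, fits of 2 groups, a replicate block and leaving out each library. Values in every library are given for isoform families, X-linked genes, the 3 largest rises and falls in a comparison and members that did not both rise with stimulation and fall with the inhibitor. Values of some further members are also printed. From other lists the genes named were among the 3 with the largest called changes of at least 1 CPM. The members and lists were chosen with earlier results of these data known.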

Additional observations from a re-analysis of the deposited data

How the results depend on the processing

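The counts of members called and their medians were recomputed under the alternatives, and most stayed within 1.5 times the reported count or within the spread. Among genes with a mean of at least 10 CPM, 1 member was lower in stimulated than in unstimulated cells and 0 were higher in inhibitor than in stimulated cells, since Pdk2 was not in that fit. With upper-quartile scaling the members' median was 1.56 for stimulated against unstimulated and -1.20 for inhibitor against stimulated cells, while the median of all genes moved to -0.27 and 0.16, and 26 members were called higher with stimulation. Leaving out 1 library gave medians of 1.67 to 2.00 for stimulated against unstimulated cells, the highest without unstimulated replicate 2. It gave 30 to 31 members higher with stimulation, 26 to 27 lower with the inhibitor than without, and 18 to 21 higher and 7 to 8 lower in inhibitor than in unstimulated cells.

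Direction changed only for values that were not called. Mpc2 was at -0.09 (10 CPM) and -0.12 (upper-quartile) for stimulated against unstimulated cells, at 0.03, 0.12, 0.00 (only the 2 groups) and -0.09 to 0.10 (1 library left out) for inhibitor against stimulated cells, and at -0.06 and -0.01 for inhibitor against unstimulated cells. Taldo1 was at -0.08, -0.11 and, with 1 library left out, -0.01 to 0.24 for stimulated against unstimulated cells. Eno2 was at -0.01 with no filter and -0.04 to 0.08 with 1 library left out for inhibitor against stimulated cells. Between inhibitor and unstimulated cells Rpe was at -0.02 (10 CPM) and Hk1 at -0.14 to 0.04 (1 library left out). The cause was not tested.

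Whether libraries with the same replicate number belong together is not stated in the labels. Libraries with the same number had correlations of deviations from -0.194 to 0.144, which cannot decide it, since libraries with different numbers were not compared. With the replicate number as a block 31 members were higher and 2 lower with stimulation (median 1.80), 1 higher and 26 lower in inhibitor than in stimulated cells (median -1.33), and 18 higher and 8 lower in inhibitor than in unstimulated cells (median 0.43). Ldhb was then not called in the last comparison (0.65, adjusted p = 0.0583).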
